A study of Brachypodium distachyon with 6 samples.

Results

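Clusters of neighbouring loci built alike are described here in the roots of Bd21, an inbred line of the model grass Brachypodium distachyon. From the table of RNA counts, loci with 1 annotated transcript on chromosomes Bd1 to Bd5 were sorted by position. Directly adjacent loci were linked where they lay on the same strand, had the same number of exons and differed in exon length by 20% or less of the longer. Chains of 3 or more linked loci are called arrays. There were 82 arrays with 272 loci, among 25622 loci with 1 transcript and 31694 loci in all. A further 1442 loci formed 721 pairs, and 23908 stood alone. The choice of loci used position and structure only, not their counts.

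Each group had 3 libraries, each from a separate biological replicate, and all seedlings grew on a low-nitrogen medium. One group was untreated. In the other, whole plants grown for 7 days were soaked for 1 h in 50 µM 2,4-D (2,4-dichlorophenoxyacetic acid, a synthetic auxin) and returned to the medium. RNA was taken from roots of both groups 7 days after the treatment, and the treated roots held nodule-like structures. Whether untreated plants were soaked without hormone, and how many plants went into a replicate, is not stated in the labels. Both groups are of the same inbred line, with no transgene or mutation named.

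Neighbouring loci with the same structure often arise by tandem duplication, in which unequal crossing-over places a copy of a gene beside the original. Copies can keep the expression of the parent, lose it, or take on a different one, and in plants many gene families of defence and of specialised metabolism are arranged in this way. Auxin acts through nuclear receptors that promote the breakdown of repressor proteins, and 2,4-D is broken down in the plant more slowly than the natural hormone. The identifiers in the counts are not paired with gene names in the files, and 0 of them matched the gene table used here as a reference. Whether the members of an array share sequence was therefore not examined, and arrays are given by chromosome and position (annotation version 2.1), with members numbered by rising coordinate.

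Library totals ranged from 12528548 to 14146109 counts. Levels are in CPM, counts per 1000000 counted fragments after scaling for library composition, and in CPM per kb of exon where different loci are compared. Libraries of the same group differed by far more than counting noise: comparing their counts pairwise, chi-square divided by its degrees of freedom was 17.1 to 91.1. Fragments that lie in near-identical copies may have been left out or assigned to either copy, and counts were made without regard to strand, so levels of single members carry that uncertainty.

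The arrays were small and compact. Of the 82, 66 had 3 members, 11 had 4, 4 had 5 and 1 had 10. Spacing was short, with a median of 2596.5 bp between the end of a member and the start of the next, and a range of 0 to 38977 bp over 190 links. Linked pairs had a median spacing of 3571 bp, and unlinked neighbours of the same strand and exon number 3417 bp. At 12 of the 190 links, a locus with several transcripts, which the rule passes over, lay in between. Members with few exons prevailed: 39 arrays consisted of 1-exon loci, 22 of 2-exon loci and 12 of 3-exon loci. Of the array members, 49.6% had 1 exon, against 34.0% in pairs and 21.5% in single loci. The rule requires equal exon number, which loci of a common exon number meet more often. These shares thus depend on the rule itself, and an excess beyond it was not tested. Lengths differed by a median of 6.98% between linked members. The largest difference that was linked was 19.8% and the smallest that was not was 20.01%, with 23 array links over 15% and 143 like neighbours left unlinked between 20% and 25%. Chromosomes 1 to 5 held 22, 16, 21, 13 and 10 arrays.

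Many members were not detected in these roots. In arrays, 44 of 272 members (16.2%) had 0 counts in every library, against 203 of 1442 loci in pairs and 11.1% of single loci. Over all transcripts it was 31.5%, but that share also counts each transcript of loci with several transcripts. It is therefore not a like comparison. Only the 1-exon class was above its single loci in the share with 0 counts (20.7% against 14.2%). Array members with 2 to 3 exons (13.8% against 15.1%) and with 4 or more (3.57% against 5.70%) were below. After the low-count filter, 168 members (61.8%) could be tested, near the 61.4% in pairs and 66.7% of single loci. All members were tested in 40 arrays, some but not all in 21, and none in 21. The array with the most members, on chromosome 3 (1424685 to 1437763), had 10 loci of 1 exon and 198 to 264 bp, and all 10 together had 5 counts over the 6 libraries. The libraries held 1, 0, 0, 1, 2 and 1 of these counts, under the floor of 3 counts in each. Tested members were at a median of 11.8 CPM per kb and single loci at 11.6 CPM per kb, but the exon classes differed: 15.2 against 5.93 CPM per kb with 1 exon, 9.61 against 8.09 with 2 to 3, and 15.9 against 19.1 with 4 or more.

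Array members were called changed more often than the table as a whole. A locus was called at an adjusted p under 0.05 in edgeR's quasi-likelihood test with Benjamini-Hochberg adjustment over all 20061 transcripts tested. Of 168 tested array members, 13 rose and 5 fell after 2,4-D (7.74% and 2.98%), where 1.48% of all tested transcripts were called higher and 0.703% lower. In pairs 34 of 885 rose and 8 fell (3.84% and 0.904%), and of single loci 239 of 15935 (1.5%) rose and 0.671% fell. The members that rose lay in 11 arrays and those that fell in 3, so they are not independent of each other, and the difference between the classes was not tested. In bulk RNA, a changed level per cell and a changed number of the cells that express a gene cannot be told apart.

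Within exon classes, the share of risen members was above that of single loci in each class. The share of fallen members was above it only with 2 to 3 exons. Among 1-exon loci, 5 of 69 tested array members rose (7.25%), against 4.71% in pairs and 2.01% of single loci. Among loci with 2 to 3 exons, 7 of 74 array members rose and 5 fell (9.46% and 6.76%), against 1.82% and 0.702% of single loci. With 4 or more exons, 1 of 25 rose (4.0%), against 2.82% in pairs and 1.09% of single loci, so that class rests on 1 member. No 1-exon array member was called lower by edgeR, where 3 had an unadjusted p under 0.05; DESeq2 called 3 and limma voom called 0. No member with 4 or more exons was called lower by edgeR either, where 2 had an unadjusted p under 0.05 and DESeq2 called 2. The median log2 fold change of tested members was 0.61 in arrays, 0.21 in pairs, 0.04 in single loci and 0.02 over all tested transcripts. Among 1-exon loci alone these medians were 1.10, 0.54 and 0.35. A log2 fold change above 0 was found in 109 of 168 array members (64.9%) and in 51.4% of all tested transcripts.

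These calls rested on the full set of libraries. Without untreated replicate 2, edgeR called 0 transcripts in the whole table (2714 at an unadjusted p under 0.05), and of the array members 34 were higher and 14 lower at that unadjusted p. Without untreated replicate 1, 2 members were called higher among 72 transcripts called in all, and without untreated replicate 3, 11 among 370. Leaving out 2,4-D replicates 1, 2 and 3 in turn gave 2, 4 and 10 higher members, where the whole table had 19, 82 and 256 calls. The count of lower members was 2 without untreated replicate 3 and 0 in each of the other fits with a library left out, where 14 to 19 had an unadjusted p under 0.05 in edgeR. With all libraries DESeq2 called 35 higher and 13 lower, at 5.96% and 4.28% of all transcripts with an adjusted p, and limma voom called 13 and 5, at 1.78% and 0.852%. Among the 13 members that rose, 6 had their highest value in 2,4-D replicate 3, 5 had it in 2,4-D replicate 1 and 2 in 2,4-D replicate 2.

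**Figure D1:**
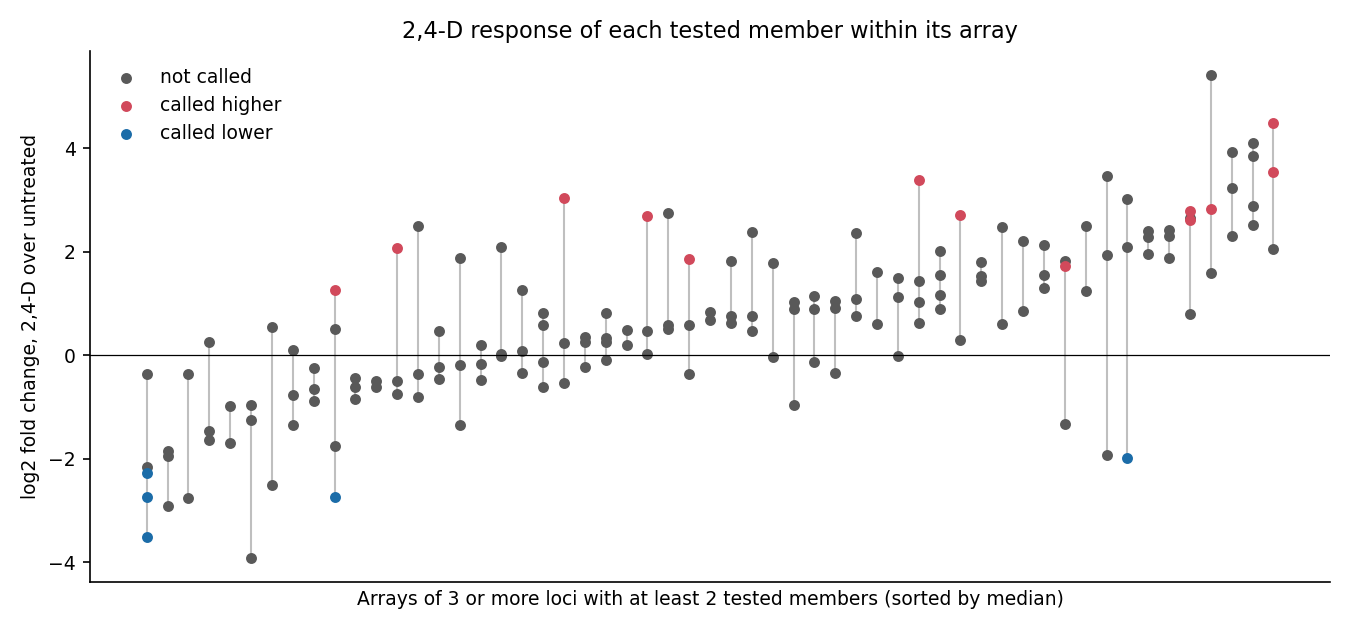
Log2 fold change (2,4-D over untreated) of each tested member (point) in the 55 arrays with at least 2 tested members, arrays side by side along the x axis and joined by a grey line from their lowest to their highest member. Of these arrays, 23 had all tested members above 0, 8 had all below 0, and 24 spanned 0.

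In 31 of the 55 arrays with at least 2 tested members (56.4%) all tested members had the same sign of log2 fold change, in 23 above 0 and in 8 below. For pairs, which have fewer members to differ, it was 224 of 352 (63.6%). The range of log2 fold changes within an array, which includes the error of each member, had a median of 1.61 and exceeded 2 in 20 arrays. In the 11 arrays with a member that rose, 22 other tested members were not called higher, with log2 fold changes from -2.74 to 5.42 and a median of 0.49. Of them 15 were above 0. Arrays with at least 2 members called in the same direction numbered 3, of which 2 held risen and 1 held fallen members. In pairs, both loci rose in 4 and both fell in 0 (8 single pair members fell in edgeR). These 3 arrays became 0 when any single untreated library or 2,4-D replicate 1 was left out and 1 when either other treated library was, and with the DESeq2 Wald test there were 10.

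Of the arrays with a called sum, the one with the highest log2 fold change was a cluster of 3 single-exon loci on the plus strand of chromosome 3 (58144515 to 58153377). The first member, Bradi3g58630.1, was at 6.22, 10.4 and 13.5 CPM in untreated replicates 1, 2 and 3 and at 204, 187 and 289 CPM in 2,4-D replicates 1, 2 and 3. The groups were far apart, and the member rose by 4.49 on the log2 scale (SE 0.36, edgeR adjusted p = 0.00868). The third member was at 7.60, 7.12 and 8.18 CPM and then at 62.2, 51.6 and 155 CPM, highest in 2,4-D replicate 3. It rose too (log2 fold change 3.55, SE 0.47, edgeR adjusted p = 0.0228). The member between them had 40.9, 22.7 and 13.5 CPM in untreated libraries and 70.8, 48.1 and 199.7 CPM in treated ones. Its groups did not overlap either, but it did not pass the test (log2 fold change 2.05, SE 0.64, edgeR adjusted p = 0.152). The ranking of the members differed between the groups: by mean share of the array per kb the second led in untreated roots, with 54.8% ± 18.2, and the first after 2,4-D, with 56.3% ± 10.5 (SD, n = 3).

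Summed over its 3 members this array was at 43.4 CPM ± 10.2 untreated and 423 CPM ± 194 treated (SD, n = 3). A separate fit took sums of arrays and of pairs with all other transcripts, where 1.35% of 19611 features were called higher and 0.663% lower. There the sum of this array rose by 3.29 on the log2 scale (SE 0.38, edgeR adjusted p = 0.0171). The sum lost its call without untreated replicate 1, untreated replicate 2 or 2,4-D replicate 1 (edgeR adjusted p of 0.0582 to 0.0954). The first member lost its call only without untreated replicate 2 (edgeR adjusted p = 0.0667). The third lost it without any single untreated library or without 2,4-D replicate 1 (edgeR adjusted p of 0.0570 to 0.118), and without 2,4-D replicate 3 its log2 fold change was 2.90.

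On chromosome 4 (3371463 to 3404826), 5 single-exon loci of 844 to 935 bp formed another array with risen members. The fourth member was at 20.5, 17.4 and 34.7 CPM in untreated libraries and at 171, 148 and 183 CPM in treated ones (log2 fold change 2.78, SE 0.30, edgeR adjusted p = 0.0142). The third was at 12.7 CPM ± 4.82 and 78.1 CPM ± 25.4 (SD, n = 3), and rose as well (log2 fold change 2.62, SE 0.39, edgeR adjusted p = 0.0292). The fifth had a log2 fold change of 2.65 (SE 0.60) but missed the threshold (edgeR adjusted p = 0.08), with treated values of 87.0, 108 and 239 CPM. The second member had 7.68, 5.82 and 53.0 CPM and then 29.5, 30.5 and 56.5 CPM, so its groups overlapped through untreated replicate 3. The first member had 1 count in 1 of the 6 libraries. The summed level, at 82.2 CPM ± 53.0 and 429 CPM ± 133 (SD, n = 3), missed the threshold (log2 fold change 2.38, SE 0.49, edgeR adjusted p = 0.0657). The fourth member lost its call without untreated replicate 1, untreated replicate 2 or 2,4-D replicate 1 (edgeR adjusted p of 0.0591 to 0.0756), and the third in each fit with a library left out (0.0529 to 0.119, edgeR adjusted p).

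Joint loss was seen in an array of 5 loci with 2 exons on chromosome 2 (38958384 to 38977453). The last member, Bradi2g38690.1, was at 231, 418 and 149 CPM in untreated libraries and at 33.0, 53.9 and 32.3 CPM in treated ones (log2 fold change -2.74, SE 0.43, edgeR adjusted p = 0.0330). The second member (log2 fold change -2.28, SE 0.37, edgeR adjusted p = 0.0341) and the fourth (log2 fold change -3.51, SE 0.60, edgeR adjusted p = 0.0410) also fell. The first member, the nearest neighbour of the second, was at 243, 109 and 66.4 CPM and at 60.3, 153 and 112 CPM. Its groups overlapped throughout (log2 fold change -0.36, SE 0.53, edgeR adjusted p = 0.741). Per kb it made up 18.3% ± 11.3 of the array untreated and 49.4% ± 11.6 treated (SD, n = 3), and it was the highest member in every treated library. A difference in response among the 5 members was not detected (edgeR adjusted p = 0.115), and the summed level, at 696 CPM ± 277 and 198 CPM ± 55.0 (SD, n = 3), also missed the threshold (log2 fold change -1.81, SE 0.37, edgeR adjusted p = 0.0629). The second member and the fourth lost their calls in each fit with a library left out (edgeR adjusted p of 0.0515 to 0.141). Bradi2g38690.1 kept its call only without untreated replicate 3 (0.0708 to 0.143 in the other fits, edgeR adjusted p), and the log2 fold change of the fourth member was -4.23 without 2,4-D replicate 1.

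**Figure D2:**
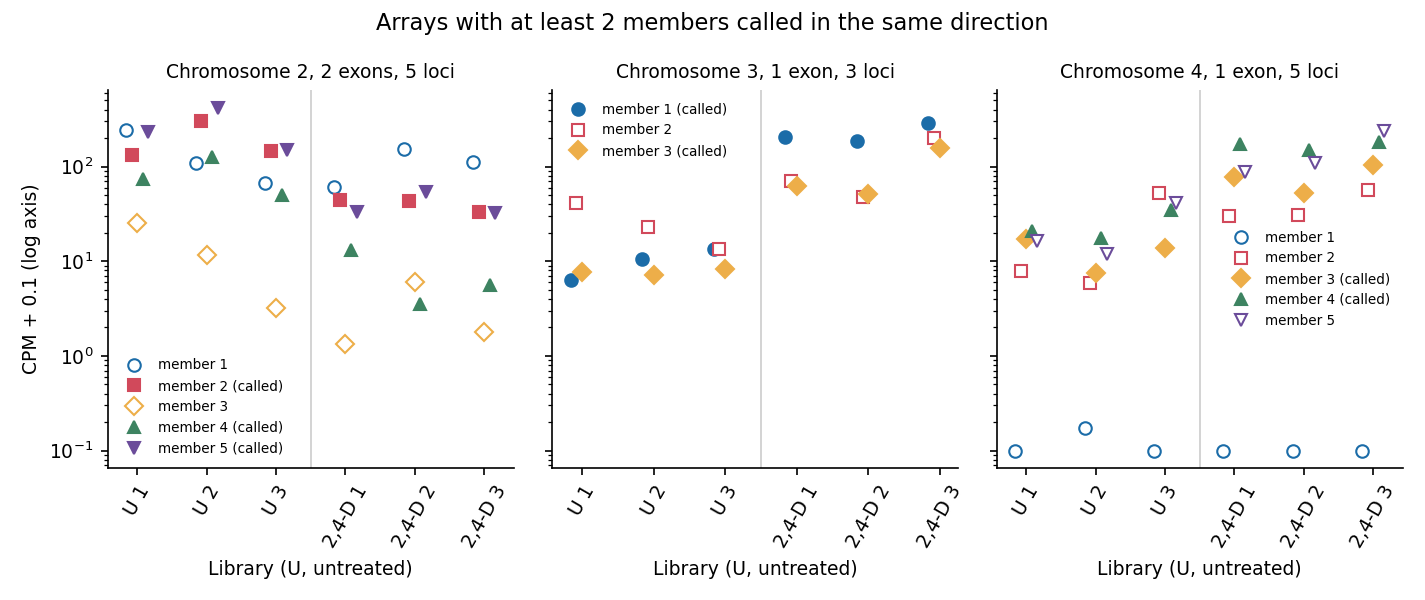
Level of each member in each library (CPM + 0.1 on a log axis; U, untreated) in the 3 arrays with at least 2 members called in the same direction, filled symbols for called members. In the chromosome 2 array the first member stays between 60.3 and 243 CPM in both groups while the called members are lower in all treated libraries.

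Members of some arrays responded differently from each other. For each array the log2 fold changes of its tested members were compared with edgeR's test for differential usage, with the array in the place of a gene and its members in the place of exons. Of 55 arrays with at least 2 tested members, 6 passed (10.9%), as did 29 of 352 pairs (8.24%), against 8.6% of the 407 arrays and pairs together. Arrays of loci with 2 or more exons gave 6 of 31 and 1-exon arrays 0 of 24 in edgeR, with 15 and 3 at an unadjusted p under 0.05. With limma these counts were 6 and 0, and the difference between the classes was not tested. Without untreated replicate 2 or without 2,4-D replicate 1 the count of unlike arrays was 2, and in the other fits with a library left out it was 4 to 7.

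The array with the smallest p held 4 loci of 2 exons on chromosome 2 (9587002 to 9601825), and it was the only one with members called in opposite directions. The fourth member, Bradi2g11320.1, was at 248, 354 and 275 CPM in untreated libraries and rose to 567, 788 and 736 CPM (log2 fold change 1.25, SE 0.23, edgeR adjusted p = 0.0467). The second member, Bradi2g11300.1, was at 9.06, 8.36 and 3.50 CPM and fell to 1.08, 1.11 and 0.924 CPM (log2 fold change -2.74, SE 0.45, edgeR adjusted p = 0.0351). The third had a log2 fold change of -1.75 (SE 0.67, edgeR adjusted p = 0.222) and the first, at 1.45 to 3.34 CPM in all libraries, one of 0.51 (SE 0.36, edgeR adjusted p = 0.473). The member that was already highest thus held 92.4% ± 3.21 of the array per kb in untreated and 98.7% ± 0.618 in treated roots (SD, n = 3). The difference among members had an edgeR adjusted p of 0.000288, and it passed in each fit with a library left out. The call of Bradi2g11320.1 by itself was lost in each of those fits (edgeR adjusted p of 0.0935 to 0.126), and that of Bradi2g11300.1 was kept only without untreated replicate 3 (0.0925 to 0.151 in the other fits, edgeR adjusted p).

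On chromosome 3 (35547698 to 35564361), an array of 3 loci with 4 exons had another dominant member after 2,4-D, with no detected change in its sum. The first member was at 156, 300.3 and 127 CPM in untreated libraries and at 83.3, 62.5 and 87.9 CPM in treated ones (log2 fold change -1.32, SE 0.35, edgeR adjusted p = 0.113). The second rose, from 19.0, 25.4 and 24.6 CPM to 104, 71.9 and 53.7 CPM (log2 fold change 1.73, SE 0.29, edgeR adjusted p = 0.0363). The third was at 38.9, 23.6 and 70.7 CPM and then at 197, 145 and 129 CPM (log2 fold change 1.82, SE 0.41, edgeR adjusted p = 0.0801). Each of the 3 members had groups that did not overlap. The first held 69.2% ± 15.2 of the array untreated and 22.9% ± 5.65 treated, and the third 20.4% ± 13.2 and then 51.0% ± 1.83 (SD, n = 3). The sum, at 262 CPM ± 75.9 and 311 CPM ± 62.9 (SD, n = 3), had an edgeR adjusted p of 0.632 (log2 fold change 0.25, SE 0.26). The difference among members had an edgeR adjusted p of 0.00334 and passed in each fit with a library left out. The second member alone kept its call only without 2,4-D replicate 3 (edgeR adjusted p of 0.0693 to 0.146 in the others).

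The 4 other arrays with unlike members each had a minor member with a larger mean share after 2,4-D. On chromosome 4 (34597065 to 34617965), the second of 3 loci with 3 exons rose from 3.20 CPM ± 0.267 to 11.6 CPM ± 0.812 (SD, n = 3), with no overlap (log2 fold change 1.86, SE 0.25, edgeR adjusted p = 0.0232). The dominant first member was at 27.1 CPM ± 4.30 and 21.0 CPM ± 0.675 (SD, n = 3), and its share went from 71.3% ± 1.81 to 47.1% ± 3.09 (SD, n = 3). Among 3 loci with 3 exons on chromosome 5 (17941461 to 17950963), the second rose from 0.777, 1.24 and 1.54 CPM to 13.8, 8.55 and 7.31 CPM (log2 fold change 3.04, SE 0.42, edgeR adjusted p = 0.0241). The neighbours on either side, at 5.38 to 32.5 CPM, overlapped between the groups.

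Among 3 loci with 8 exons on chromosome 4 (43088936 to 43098823) no member was called by itself. The first was at 28.4 CPM ± 10.1 and 11.1 CPM ± 2.87, and the third at 0.559 CPM ± 0.298 and 2.09 CPM ± 0.643 (SD, n = 3), with log2 fold changes of -1.35 and 1.89 (edgeR adjusted p = 0.113 and 0.124). On chromosome 1 (58815156 to 58832022), the second of 3 loci with 2 exons fell from 65.5, 144 and 85.2 CPM to 23.5, 29.5 and 20.9 CPM (log2 fold change -1.99, SE 0.33, edgeR adjusted p = 0.0368). The first was at 81.2 and 62.4 CPM in 2,4-D replicates 1 and 2 and at 738 CPM in replicate 3, so its mean rests on that library. The third member was at 2.42, 1.16 and 5.87 CPM and then at 12.4, 15.4 and 49.2 CPM, without overlap, but was not called (log2 fold change 3.02, SE 0.78, edgeR adjusted p = 0.107).

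Adjusted p of the difference among members was 0.00986, 0.0169, 0.0148 and 0.0416 in edgeR for the arrays at 34597065 and on chromosome 5, at 43088936 and on chromosome 1. The first of these lost its call when untreated replicate 2 or either of 2,4-D replicates 1 and 2 was left out (edgeR adjusted p of 0.0525 to 0.122). The chromosome 5 array lost it without untreated replicate 1 or 2 or 2,4-D replicate 1 or 2 (0.0525 to 0.154, edgeR adjusted p). The array at 43088936 lost it without untreated replicate 1 or 2 or 2,4-D replicate 1 or 3 (0.0510 to 0.143, edgeR adjusted p). The chromosome 1 array kept it only without 2,4-D replicate 3 (0.0525 to 0.240 in the other fits, edgeR adjusted p). The member calls in these arrays were also lost with single libraries left out: on chromosome 1 in each such fit (0.0591 to 0.160, edgeR adjusted p), and on chromosome 5 and at 34597065 without untreated replicate 1 or 2 or 2,4-D replicate 1 or 2 (0.0628 to 0.119, edgeR adjusted p).

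**Figure D3:**
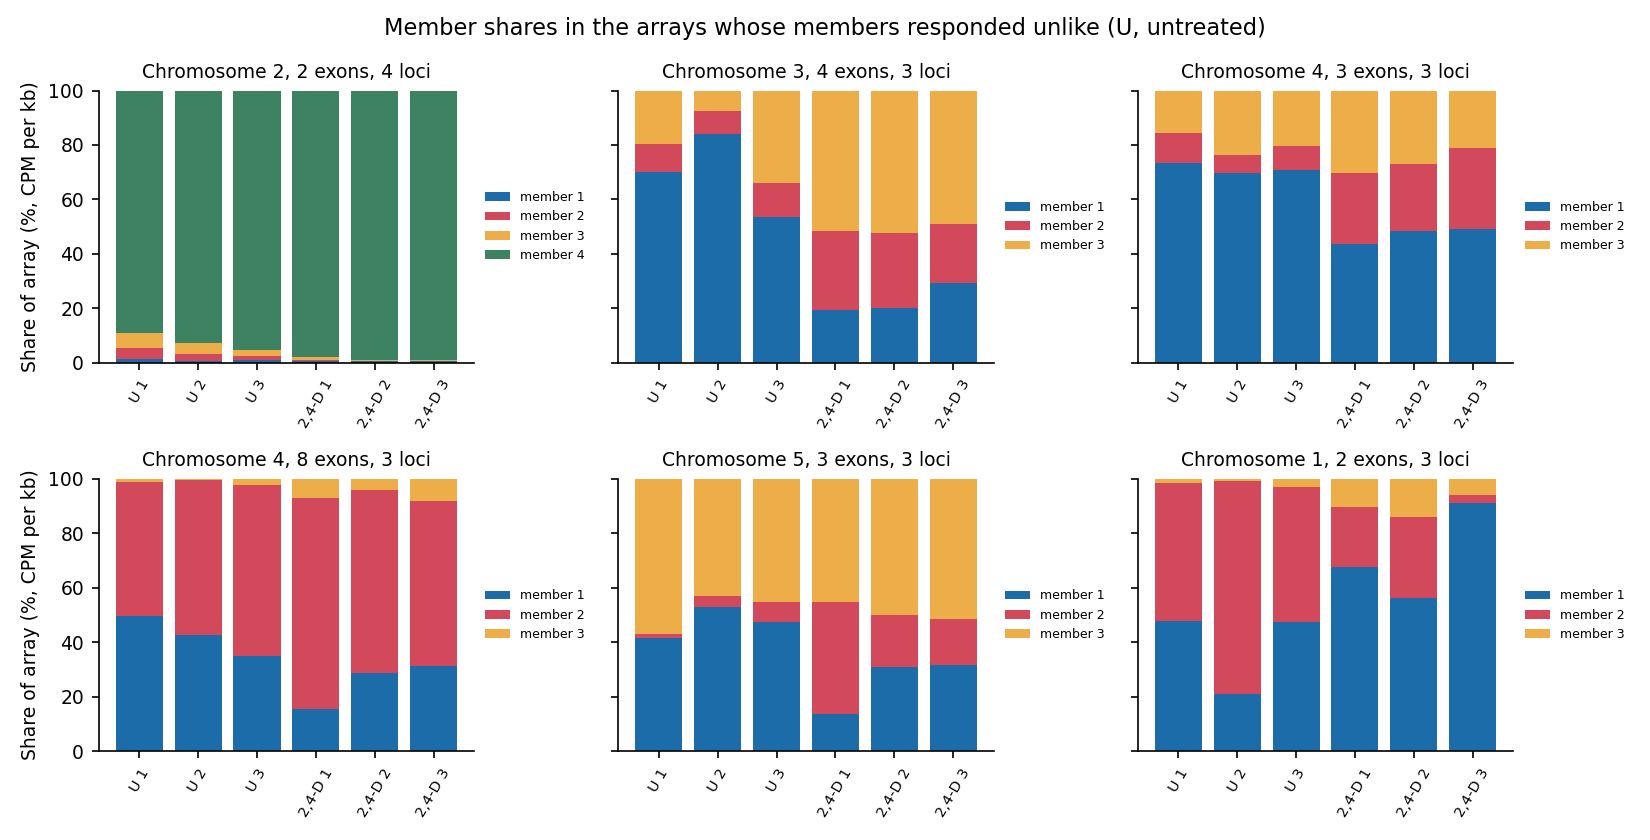
Share of each member in its array (%, from CPM per kb) in each library (U, untreated) for the 6 arrays whose members differed in response, ordered by p. In the chromosome 3 array the first member holds 69.2% on average in untreated and 22.9% in treated libraries; in the chromosome 2 array the fourth member holds 92.4% and 98.7%.

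In the 59 arrays with a summed mean of at least 5 CPM, the highest member held a median of 63.6% of the array per kb (quartiles 52.3% and 75.8%), a share that cannot be under 33.3% in an array of 3. It held over 90% in 5 arrays and under 50% in 9. In pairs, where it cannot be under 50%, the median was 84.0%. The median share was 61.2%, 65.2% and 62.9% in untreated and 67.6%, 66.7% and 61.9% in treated libraries. Its difference of 2.33 percentage points between the groups was within the spread of libraries (two-sided exact permutation test, p = 0.3, smallest possible 0.1, n = 3 in each group).

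The same member was highest in all 6 libraries in 25 of the 59 arrays (42.4%). For pairs, in which fewer members can be highest, it was 322 of 431 (74.7%). In the 20 arrays of 3 with such a constant member it was the one with the lowest coordinate in 9, the middle one in 6 and the one with the highest coordinate in 5. In 5 arrays and 11 pairs, a given member was highest in every untreated library and another in every treated one. The 3 most abundant of these arrays were the chromosome 3 array at 35547698, the chromosome 1 array at 58815156 and an array of 3 loci with 3 exons on chromosome 3 (39095208 to 39112601). In the last, the second member was at 22.0, 46.7 and 55.6 CPM in untreated libraries and at 2.15, 5.42 and 0.616 CPM in treated ones (log2 fold change -3.91, SE 0.78, edgeR adjusted p = 0.0602). The third, at 18.9 CPM ± 3.16 and 9.75 CPM ± 2.15 (SD, n = 3), became the highest, with 28.4% ± 6.26 and then 67.7% ± 8.46 of the array (SD, n = 3). No member was called, but the sum, at 64.0 CPM ± 20.9 and 14.0 CPM ± 4.40 (SD, n = 3), fell (log2 fold change -2.19, SE 0.36, edgeR adjusted p = 0.0367). That call was lost in each fit with a library left out (edgeR adjusted p of 0.0531 to 0.156).

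**Figure D4:**
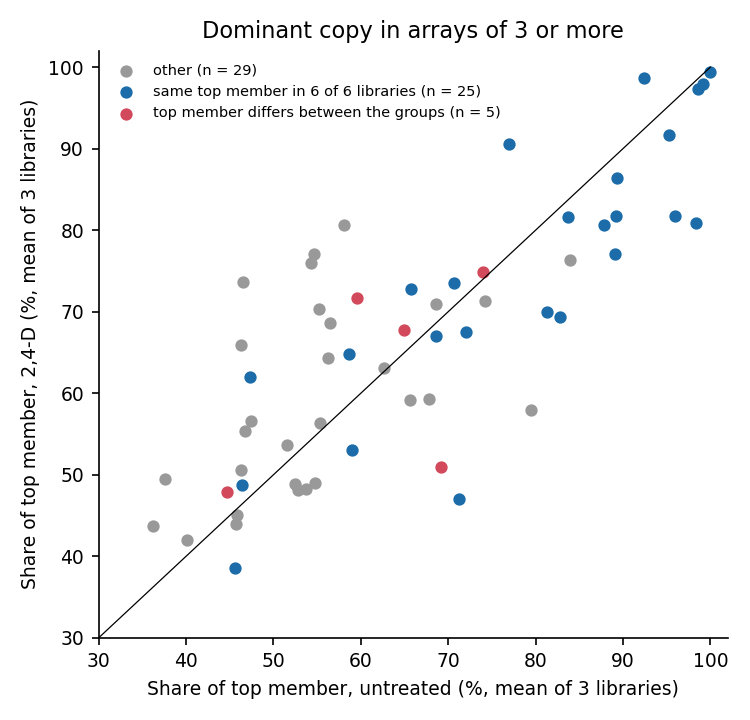
Share of the highest member (%, mean of 3 libraries) in 2,4-D against untreated roots for the 59 arrays with a summed mean of at least 5 CPM; the line marks equal shares. The 25 arrays with the same highest member in every library include the 5 with mean shares over 90%, and the 5 arrays in which the highest member differed between the groups lie between 44.7% and 74.9%.

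Summing members gave 3 called arrays among 63 with a tested sum, 2 higher and 1 lower. Beside those on chromosome 3 at 58144515 and 39095208, this was an array of 3 loci with 2 exons on chromosome 2 (1308406 to 1315379). Its sum was 39.4, 60.8 and 38.1 CPM in untreated libraries and 204, 216 and 263 CPM in treated ones (log2 fold change 2.31, SE 0.25, edgeR adjusted p = 0.0139). The middle member rose, from 19.9, 21.8 and 20.8 CPM to 137, 153 and 153 CPM, with little spread among replicates (log2 fold change 2.83, SE 0.16, edgeR adjusted p = 0.00537). The first was at 19.4, 39.0 and 17.3 CPM and then at 66.0, 61.2 and 101.7 CPM, and missed the threshold (log2 fold change 1.6, SE 0.38, edgeR adjusted p = 0.0903). The third was at 0.173, 0 and 0.0699 CPM and then at 0.932, 2.64 and 7.47 CPM (edgeR adjusted p = 0.0655). The sum lost its call without untreated replicate 1, untreated replicate 2 or 2,4-D replicate 1 (edgeR adjusted p of 0.0564 to 0.0679), and the middle member only without untreated replicate 2 (0.0667, edgeR adjusted p).

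The most abundant arrays varied widely between untreated libraries. A cluster of 4 single-exon loci on chromosome 4 (11933503 to 11980828) had sums of 2186, 1196 and 168 CPM in untreated and 2333, 2282 and 1911 CPM in treated libraries, and was not called (log2 fold change 0.88, SE 0.77, edgeR adjusted p = 0.566). Most of it came from the third member, which held 82.7% ± 0.404 untreated and 69.3% ± 1.95 treated (SD, n = 3). The first member rose, from 22.9, 14.5 and 5.38 CPM to 134, 161 and 151 CPM (log2 fold change 3.39, SE 0.51, edgeR adjusted p = 0.0293), a call kept only without untreated replicate 3 (0.0555 to 0.141 in the other such fits, edgeR adjusted p). An array of 3 loci with 5 exons on chromosome 3 (58471583 to 58499617) had sums of 3712, 1518 and 451 CPM and of 710.1, 1820.2 and 930.4 CPM (log2 fold change -0.71, SE 0.74, edgeR adjusted p = 0.628). The first member was highest in every library, with 95.9% ± 4.77 and 81.7% ± 8.28 (SD, n = 3), and its members were all lowest in untreated replicate 3. These clusters together held 35.2% of the summed CPM of all arrays.

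All arrays together held 1.01%, 0.705% and 0.526% of counts in untreated libraries and 0.851%, 1.04% and 1.30% in treated ones, overlapping between the groups (two-sided exact permutation test, p = 0.2, smallest possible 0.1). A comparison that was not planned left out the 2 most abundant arrays. The shares were then 0.464%, 0.441% and 0.463% in untreated and 0.533%, 0.616% and 1.01% in treated libraries, with no overlap (two-sided exact permutation test, p = 0.1, the smallest possible). The arrays left out were picked by these same counts, so this p cannot decide whether the share changed. Pairs held 5.84% ± 0.294 and 6.73% ± 0.102 of counts (SD, n = 3), also without overlap (two-sided exact permutation test, p = 0.1).

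An array of 5 loci with 2 exons on chromosome 2 (1639521 to 1651855) was low throughout, and only its lower-coordinate members passed 5 CPM. From the first to the fifth member the untreated means were 2.82, 2.35, 1.16, 0.613 and 0.0233 CPM and the treated means 8.30, 9.63, 2.63, 1.14 and 0.0239 CPM. The fifth had 1 count in each of 2 libraries and 0 in the others. Log2 fold changes of the other 4 ran from 0.89 to 2.03 and none passed the test, the nearest being the first (edgeR adjusted p = 0.0530). Beside the arrays described, 3 members of other arrays were called, all higher, with log2 fold changes of 2.08 to 2.72.

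Co-expression was examined apart from the treatment. For each link between directly adjacent tested loci, deviations of log2 CPM from the group means were correlated over the 6 libraries, which leaves few degrees of freedom per link, so only medians over many links are given. The links of a class share libraries and, within an array, loci. Links within arrays had a median Pearson r of 0.45 (quartiles -0.15 and 0.89, 105 links), and pairs had 0.53 (352 links). Unlinked neighbours had 0.25 where strand and exon number were the same, 0.11 where only the strand was, and 0.09 on opposite strands. Without untreated replicate 1 the median was 0.65 in arrays and 0.60 in pairs, so the order of the classes was reversed. Without the other single libraries it was 0.41 to 0.49 in arrays and 0.49 to 0.59 in pairs.

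The co-variation in arrays lay mostly among single-exon loci. Links of 1-exon loci in arrays had a median r of 0.85 (40 links in 22 arrays), against 0.69 in pairs and 0.38 in unlinked neighbours of the same strand with 1 exon. Over 0.8 were 22 of the 40 links (55.0%), against 40.9% in pairs and 22.7% in unlinked neighbours. With 2 or more exons, array links had a median r of 0.19 (65 links in 31 arrays), near the 0.15 of unlinked neighbours of the same strand and exon number and below the 0.44 of pairs. The median of 1-exon array links was 0.75 without 2,4-D replicate 3 and 0.85 to 0.94 without the other single libraries. Exon class moved with r outside arrays too: unlinked 1-exon neighbours on opposite strands had a median of 0.47, and such neighbours with 2 or more exons 0.07. Levels differed as well, with tested 1-exon loci at a median of 15.2 CPM per kb in arrays and 5.93 CPM per kb as single loci. With both loci at 5 CPM or more, median r was 0.52 in arrays, 0.61 in pairs and 0.25 in unlinked neighbours of the same strand and exon number. That comparison pools the exon classes, so r among 1-exon loci was not tested apart from level.

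In arrays, 35 of 40 links of 1-exon loci had the same sign of log2 fold change (87.5%), with a median absolute difference of 0.71, against 72.0% and 0.65 in pairs and 55.7% and 0.95 in unlinked neighbours of the same strand with 1 exon. Most 1-exon loci lay above 0: 51 of 69 tested array members (73.9%), 72.2% in pairs and 65.8% of single loci. Loci of a class that mostly lies above 0 share a sign more often, and this was not separated from a joint response. Links of loci with 2 or more exons had the same sign in 40 of 65 cases (61.5%), with a median absolute difference of 1.20, against 60.6% and 0.62 in pairs and 51.8% and 0.61 in unlinked ones. None of these differences between classes was tested. Levels within arrays were closer than elsewhere, with a median absolute difference of 1.20 in log2 CPM per kb, against 1.56 in pairs and 1.64 in unlinked neighbours of the same strand and exon number. Links at or under the median spacing of 2596.5 bp had a median r of 0.52 and longer ones 0.29. These 2 medians pool the exon classes, and spacing was not examined apart from exon class.

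**Figure D5:**
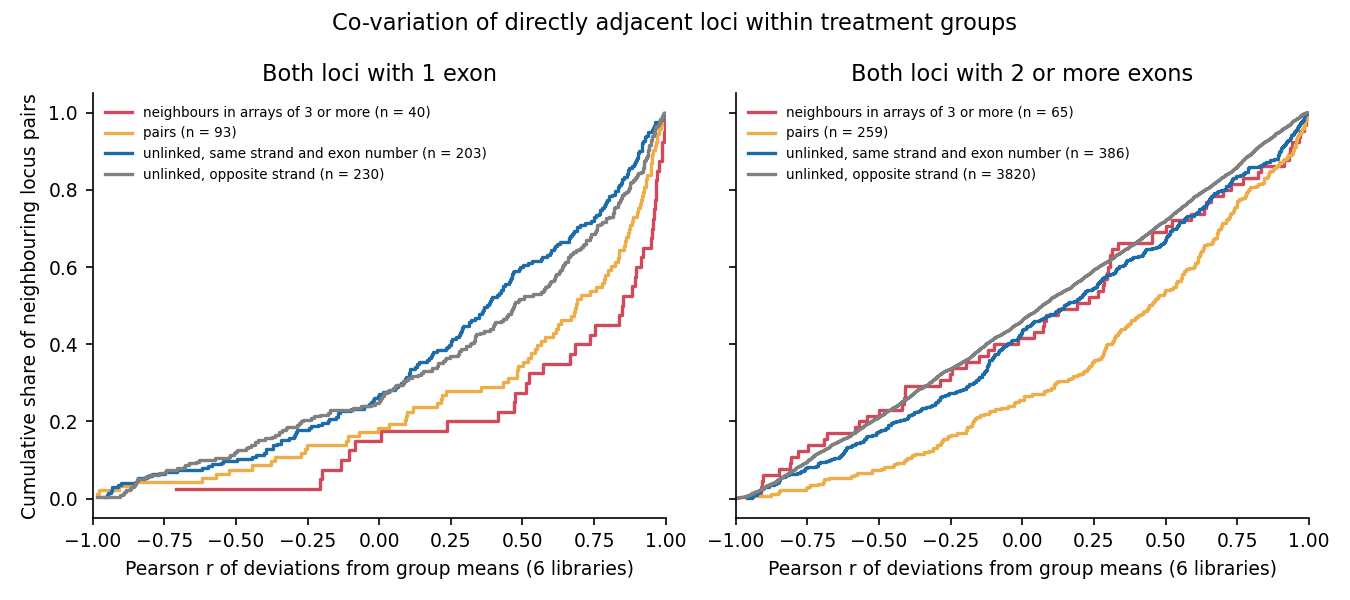
Cumulative share of adjacent locus pairs by the Pearson r of their deviations from the group means over 6 libraries, for loci with 1 exon (left) and with 2 or more exons (right). For 1 exon the curve of arrays lies to the right of the others, with a median of 0.85, and for 2 or more exons it runs with that of unlinked neighbours, with medians of 0.19 and 0.15.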

How the data were processed

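Per the labels' protocols, total RNA from roots was made into strand-specific mRNA libraries. The authors deposited raw counts; per the file headers these were made with featureCounts 1.4.3 from annotation version 2.1, on fragments of 50 to 1000 bp, per transcript, with no strand option. The submitters' processing notes also name limma 3.28.7, Subread 1.4.3 (with no role given), FastQC 0.11.3 and bcl2fastq 1.8.4; the aligner is not given in the sources used here.

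From these counts, edgeR 4.0.16 (R 4.3.3, TMM, default filter by group with minimum count 10, robust quasi-likelihood F test) was fitted to all transcripts. It was also fitted to sums of arrays and of pairs with all other transcripts, and, as diffSpliceDGE, to members within arrays and pairs. Standard errors derive from the fold change and F. Log2 CPM for co-expression used a prior count of 1. The linking rule was tried on a toy set of loci. The transcript and unlike-response fits were tried on simulated counts with large planted changes only, so recovery of smaller changes was not examined. Named arrays are those with 2 or more members called in 1 direction, the 3 with most members, the 3 most abundant, the 5 with the smallest unlike-response p, the 3 most abundant whose highest member differed between groups, and the called sums. The members and lists were chosen with earlier results of these data known. Product lists and tissue markers could not be used without gene names. Alternatives were DESeq2 1.42.0, limma 3.58.1 voom, other scaling, filters, a replicate block, other linking rules and each library left out. P-values set the difference between groups against the spread between these replicates. Standard errors include that spread, and floors cover counting error only.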

Additional observations from a re-analysis of the deposited data

How the results depend on the processing

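The 13 higher and 5 lower array members became 7 and 2 with a replicate block and 35 and 13 with the DESeq2 Wald test. Calls in the whole table were 437 in the main fit, 231 with the block and 2286 with DESeq2. At an unadjusted p under 0.05 in edgeR, 42 members were higher and 19 lower in the main fit, and 46 and 17 with the block. Linking at 10% of length, which leaves 39 arrays with 129 loci in place of 272, gave 4 higher and 4 lower members. With single libraries left out, higher members ran from 0 to 11 and lower ones from 0 to 2. Array sums (2 higher, 1 lower) were 5 and 0 with the block, 13 and 3 with DESeq2, and 0 and 0 to 4 and 1 with libraries left out. At an unadjusted p under 0.05 they were 15 and 3 in the main edgeR fit, 19 and 4 with the block, and 16 and 6 with DESeq2. Higher sums were 4 with limma voom and 0 with links at 10% (edgeR; 8 sums under an unadjusted p of 0.05). Lower sums were 2 without the low-count filter and 0 with adjacency among all loci. Arrays with unlike members (6) were 0 with links at 10% (edgeR; 3 of 24 under an unadjusted p of 0.05) and 2 to 7 with libraries left out. Arrays with a joint response (3) were 10 with DESeq2 and 0 to 1 with libraries left out. The cause was not tested. The median r of array links (0.45) was 0.67 with links at 10% and 0.41 to 0.65 with libraries left out, and for 1-exon loci (0.85) 0.75 to 0.94. For pairs (0.53) it was 0.54 with links at 10% and 0.49 to 0.60 with libraries left out. The median dominant share (64.2% over libraries) stayed at 61.9% to 65.0%. The block rests on replicate numbers alone: deviations of same-numbered libraries correlated at -0.12, 0.35 and 0.08, and untreated replicate 1 correlated best with 2,4-D replicate 3. Under it 5 arrays had unlike members. Depth limits members under about 3 counts per library, 0.208 to 0.259 CPM.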
